A study of Drosophila melanogaster with 13 samples.

Results

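Long noncoding RNAs (lncRNAs) are transcripts that are processed much like messenger RNAs but are not known to encode a protein. The 44 lncRNAs described here are those that reached 20 CPM (the usual depth-scaled unit, a gene's count over the total of its library) in at least 3 of 13 libraries of Drosophila motoneurons. They were taken from 1896 rows of the count table whose FlyBase symbol starts with lncRNA:, with roX1 and roX2 left out, in a table of 17753 genes. Of those 1896 rows, 956 had a count in any library and 940 had none. The 44 were chosen by this level, so a high level is a description of them and not a result. The lncRNAs just inside the threshold were CR44948, CR45054 and CR44918, whose third-highest libraries had 22.0, 22.1 and 22.4 CPM. Just outside were CR33942 with 19.7 CPM and CR43857 with 18.5 CPM. The prefix lncRNA: is dropped from symbols below.

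The libraries were made by Patch-seq, in which the cytoplasm of a cell is drawn into a patch pipette and its RNA is sequenced. The cells were MN1-Ib motoneurons of the larval ventral nerve cord, each of which innervates a body wall muscle, from third-instar larvae. Each library pooled 4 to 8 of them, from 1 or 2 larvae. All groups carried MN1-Ib-GAL4 and UAS-mCD8:GFP, so the GAL4 line drove GFP and, where present, the RNAi transgene in the same cells. The groups were Shal RNAi (n = 3), Notch RNAi (n = 4), Notch+Shal RNAi, which carried both (n = 3), and Control, MN1> GFP with no RNAi named (n = 3). Shal encodes a voltage-gated potassium channel of the Kv4 family and Notch a receptor of cell-to-cell signalling. Nothing in the sources used here names the RNAi lines, the sex of the larvae or whether the libraries of a group came from different larvae. The p-values therefore cover only the spread among these libraries, part of which may be technical.

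LncRNAs act in several ways. Some scaffold ribonucleoprotein granules, some are precursors from which microRNAs or small nucleolar RNAs (snoRNAs) are cut, and for others transcription itself affects a neighbouring gene. In Drosophila many are restricted to the nervous system or the testis, and most have no assigned function. Patch-seq of polyadenylated RNA counts the long polyadenylated forms and not the small RNAs cut from them.

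Several libraries stood apart, and this touches every comparison below. Total counts ran between 3783100 and 9319116. Mitochondrial genes took 13.5%, 5.36% and 11.5% of the counts of the 3 Shal RNAi libraries, 2.19% to 5.83% in Notch RNAi, 0.893% to 4.69% in Notch+Shal RNAi and 2.38% to 2.60% in Control. The factors of the trimmed mean of M-values (TMM), by which library sizes were scaled, were 0.569, 1.04 and 0.621 for Shal RNAi and 0.936 to 1.41 for the other 10 libraries. The targeted RNAs did not follow the labels throughout. Shal had 93.7, 107 and 217 normalised CPM in the libraries labelled Shal RNAi, 54.3, 61, 53.8 and 14.8 in Notch RNAi, 70.9, 30 and 21.5 with Notch+Shal RNAi and 4.73, 84.3 and 36.3 in Control. N, the Notch gene, had 15.8, 28.6 and 2.08 normalised CPM in Shal RNAi, 25.3, 19.1, 20.6 and 209 in Notch RNAi, 15, 16.2 and 344 with Notch+Shal RNAi and 29.2, 25.5 and 182 in Control. Shal was thus above every Control library in all 3 Shal RNAi libraries and inside the Control range with Notch+Shal RNAi. N was below every Control library in Notch RNAi 1, 2 and 3 and in Notch+Shal RNAi 1 and 2, and above them in Notch RNAi 4 and Notch+Shal RNAi 3. Neither RNA was lower throughout the libraries labelled as its knockdown, and every group name below is a label of the libraries. The 4 markers of glutamatergic motoneurons (VGlut, eve, twit, wit) summed to 2287 to 4830.4 CPM in Shal RNAi, 870.2 to 3065 in Notch RNAi, 1258 to 4219.7 in Notch+Shal RNAi and 1444 to 4772 in Control. Markers listed for other cell types were also counted. The 7 markers of other neurons that were matched were ChAT, VAChT, VGAT, Gad1, ple, Vmat and SerT. They summed to 20.9 to 144 CPM in Shal RNAi, 7.67 to 561 in Notch RNAi and 25.8 to 91.2 in Control. With Notch+Shal RNAi their sum was 6.53 to 212 CPM. The highest of them was ple, with 498 CPM in Notch RNAi 1 and 437 in Notch RNAi 4. Among 8 glial markers, alrm was at 0 in every library, repo in 11 of 13 and wrapper in 9, and the sum was held mostly by nrv2 and Gs2, with 44.3% to 100% and a median of 98.2%. That sum was 218 to 761 CPM in Shal RNAi, 344 to 1041 in Notch RNAi, 174 to 387 with Notch+Shal RNAi and 344 to 565 in Control. The 8 muscle markers summed to 643 to 2783 CPM in Shal RNAi, 232 to 2321 in Notch RNAi, 173 to 905 with Notch+Shal RNAi and 706 to 2612 in Control. For the 7 hemocyte markers the sum was 60.5 to 118 CPM in Shal RNAi, 14.6 to 155 in Notch RNAi, 94.6 to 726 with Notch+Shal RNAi and 27.8 to 61.8 in Control. The 7 fat body markers reached 6219.8 to 11223 CPM in Shal RNAi, 2108 to 9575 in Notch RNAi, 1472 to 20329 with Notch+Shal RNAi and 5376 to 16278 in Control. The part of these cells in any lncRNA result was not tested. In such pools, fewer cells of a type and less RNA per cell cannot be told apart.

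Most of the 44 lncRNAs stood clear of protein-coding exons. By the BDGP6.54 annotation, 26 overlapped no other gene, 12 lay within or across an intron without touching an exon, 5 shared exon sequence with a gene on the same strand and 1 with a gene on the other strand. Among the other 1852 lncRNA rows, 65.4% overlapped no other gene, against 59.1% of the 44. Of the 26 without overlap, 17 began or ended within 1000 bp of a protein-coding gene. With the exons of all annotated transcripts of a gene merged, the median exonic length was 1008.5 bp, against 611.5 bp over the other rows. By the same merging, 25 of 44 (56.8%) formed a single block of exon sequence, against 68.9%. A small RNA gene lay inside 6 of the 44 (13.6%), against 1.94% of the other rows. The 5 that shared exon sequence on the same strand were CR42862 (246 bp with CG33229), CR42491 (377 bp with RpL22), CR42549 (97 bp with mura), CR43241 (424 bp with CG42748) and CR45962 (656 bp with Ten-m). Whether the counting used strand is not stated, so reads in those stretches, and reads of CR46064 in the 735 bp it shares with CR43281 on the other strand, cannot be assigned with certainty. CR43281 itself was at 0 in every library.

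The 44 lncRNAs took 1.30%, 1.00% and 1.20% of all counts in the 3 Shal RNAi libraries, 1.05%, 1.06%, 0.899% and 0.722% in Notch RNAi, 0.757%, 0.513% and 0.971% with Notch+Shal RNAi, and 0.614%, 0.601% and 0.739% in Control. Every Shal RNAi library was thus above every Control library, while Notch+Shal RNAi libraries lay on both sides of Control. That separation did not hold without Hsromega and CR34335. The sum of the rest was 4932, 3760 and 5584 CPM in Shal RNAi and 3120, 2227 and 4177 in Control, which overlap. Only a few transcripts made up these shares: the leading 7 (Hsromega, CR34335, noe, CR42862, CR40469, CR44922 and mimi) held 64.6% to 91.7% of the sum in each library. All other lncRNA rows together took 0.0535% to 0.114% of counts in Control.

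**Figure D1:**
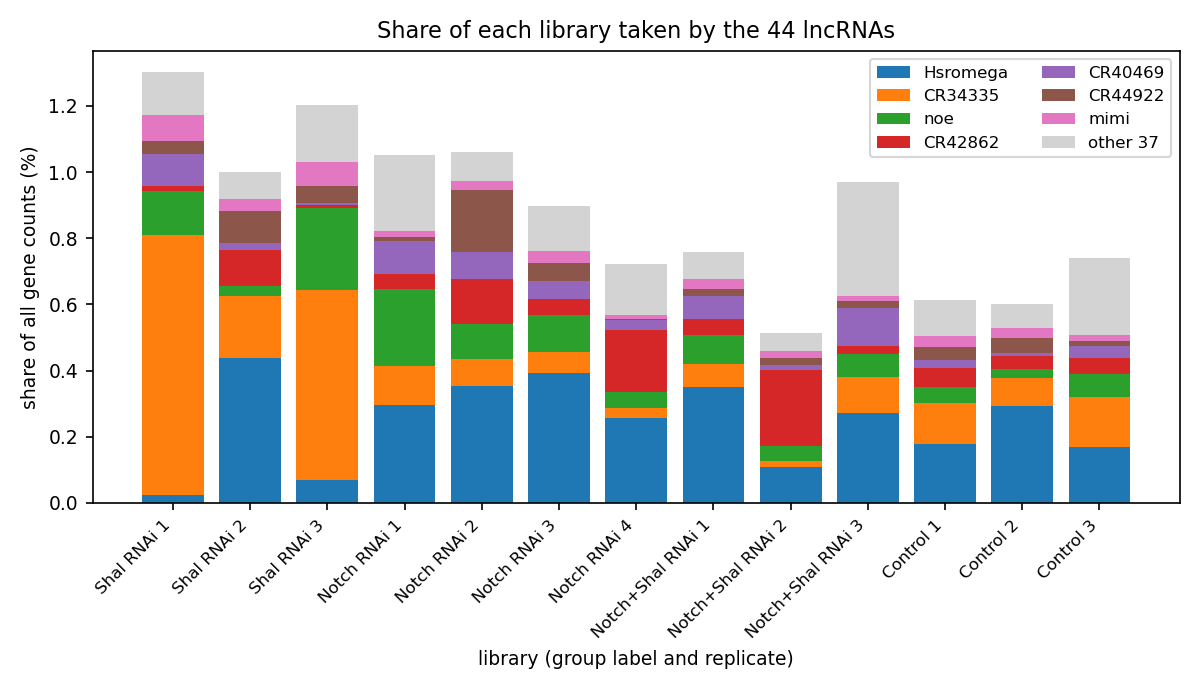
Share of all gene counts, in percent, taken by the 44 lncRNAs in each of the 13 libraries, stacked for the 7 with the highest mean CPM and for the other 37. The Shal RNAi libraries reach 1.30%, 1.00% and 1.20%, with CR34335 the largest part in Shal RNAi 1 and 3 and Hsromega in Shal RNAi 2, while the Control libraries reach 0.614%, 0.601% and 0.739%.

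How widely the 44 were found differed. In 9 the 20 CPM threshold was met in all 13 libraries, in 10 it was met in 6 to 12, and in 25 in 3 to 5. None met it in the libraries of 1 group alone, 8 met it in 2 groups, 16 in 3 and 20 in all 4. A single library held over 50% of the summed CPM of 9 of them. For the 17 that had more than 3 counts in every library, the highest library was 6.04 to 97.1 times the lowest, with a median of 17.3. The biological coefficient of variation, the spread between libraries of a group beyond counting error, had a median of 1.251 over the 44 and 1.167 over all 8908 genes tested. It was lowest in mimi (0.616) and highest in marge (2.61). These libraries were amplified without molecular identifiers, so the counts are not independent molecules.

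Ranked per kilobase of exon, the order of the levels differed from that of the counts. CR34335 led with 5106 CPM per kb on average over the 13 libraries, followed by CR40469 with 2362, noe with 894, CR33938 with 289 and mimi with 209. Notch+Shal RNAi 3 held 76.7% of the summed CPM of CR33938, which without that library had 72.8 CPM per kb and stood at rank 16. Hsromega, which had the most counts, stood at rank 12 with 114 CPM per kb at a length of 21710 bp in the annotation. That length merges the exons of its 7 annotated transcripts, so the value per kb is understated where a shorter one was counted. Lengths of the others were merged likewise. At the low end stood CR46006 with 1.27 and cherub with 2.95 CPM per kb.

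**Figure D2:**
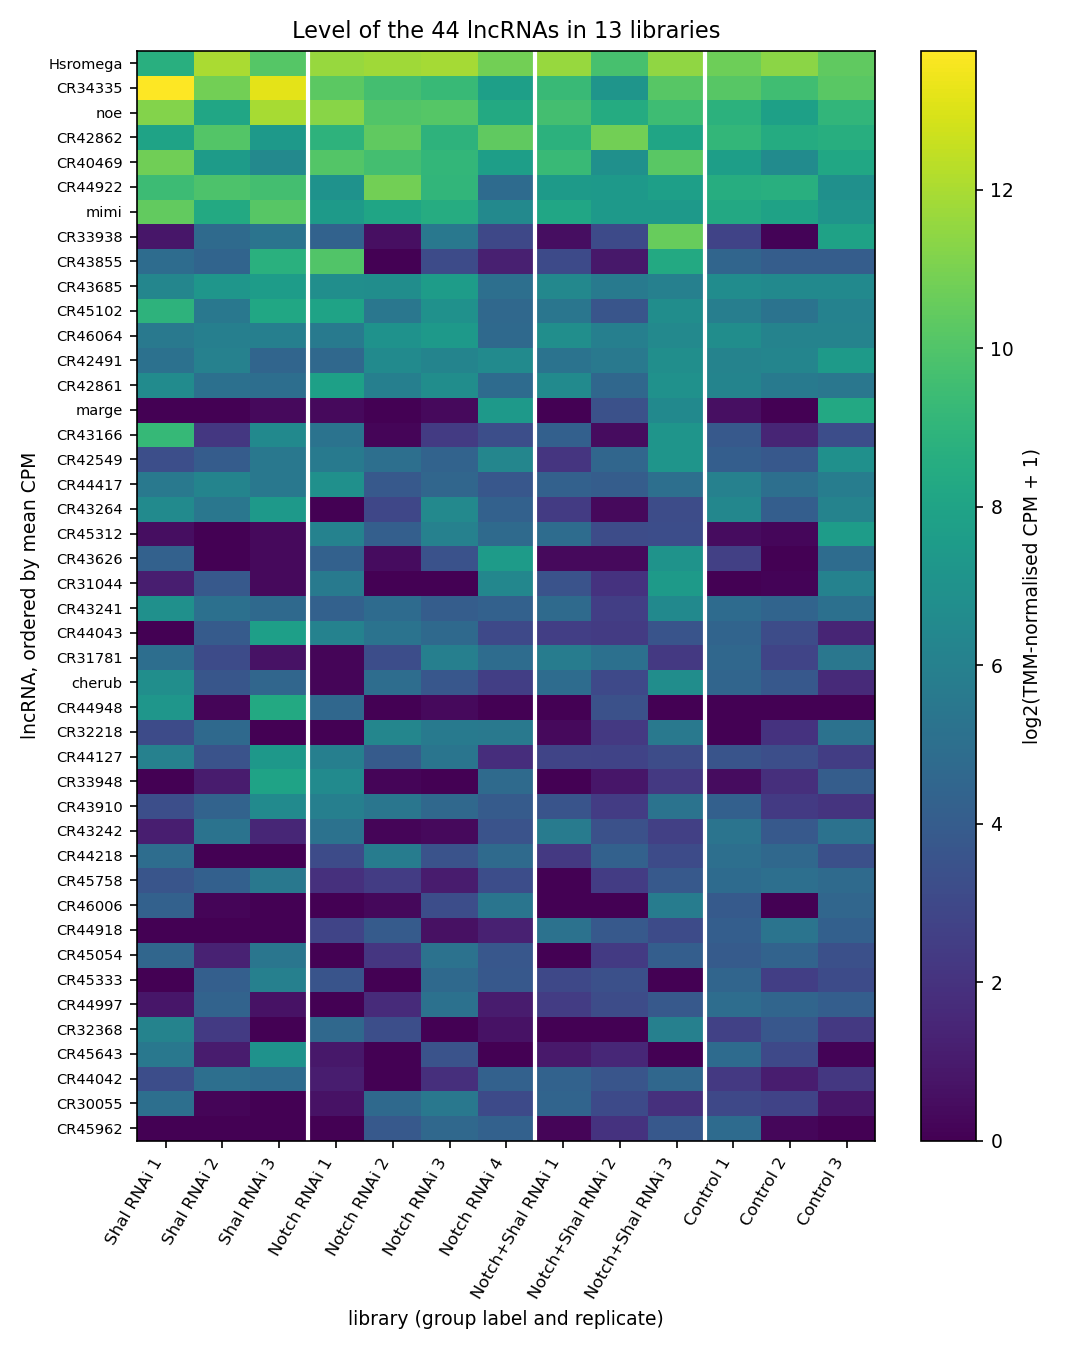
Level of each of the 44 lncRNAs (rows, ordered by mean CPM) in the 13 libraries (columns, by group label), as log2(TMM-normalised CPM + 1). The 7 rows at the top are at 27.5 normalised CPM or more in every library, while rows such as marge, CR33938, CR33948 and CR44948 are bright in a few libraries and dark in the rest.

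Hsromega (FBgn0001234, chromosome arm 3R, 21296127 to 21317836, plus strand) is the heat-shock RNA omega locus, whose nuclear transcript organises omega speckles that hold RNA-processing proteins. Its normalised CPM was 410.3, 4182 and 1123 in Shal RNAi, 3177, 3485, 3874 and 1830.0 in Notch RNAi, 3212, 865 and 2841 with Notch+Shal RNAi and 1659.5, 2604 and 1349 in Control. The Shal RNAi libraries spanned the whole range, with the lowest and the highest of all 13. Means were 1905 ± 2004 in Shal RNAi, 3091 ± 888 in Notch RNAi, 2306 ± 1262 with Notch+Shal RNAi and 1871 ± 653 in Control (SD, n = 3, 4, 3 and 3). The fitted log2 difference of Shal RNAi from Control was 0.03 (SE 0.67, edgeR adjusted p = 0.989), and that of Notch RNAi from Control 0.72 (SE 0.64, edgeR adjusted p = 1).

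The RNA noe (FBgn0026197, chromosome arm 3L, 17400272 to 17401348, minus strand) was named for expression in the nervous system and lies in an intron of blot, a putative transporter gene, on the same strand. It had 2381, 282 and 3952 normalised CPM in Shal RNAi, 2496, 1045, 1128 and 329 in Notch RNAi, 812, 353 and 704 with Notch+Shal RNAi and 449, 228 and 536 in Control. In Shal RNAi 1 and 3 and in Notch RNAi 1, 2 and 3 it was above every Control library, while Shal RNAi 2 and Notch RNAi 4 lay within the Control range. Against Control the log2 fold change was 2.45 (SE 0.77, unadjusted p = 0.00387, adjusted p = 0.205 by edgeR) in Shal RNAi and 1.63 (SE 0.72, unadjusted p = 0.0321, adjusted p = 1 by edgeR) in Notch RNAi. Without Shal RNAi 2 the difference of Shal RNAi from Control passed the threshold of 0.05, with an adjusted p of 0.0330 by edgeR, as it did by DESeq2 (0.0431), in a range of 0.0330 to 1 over 23 alternatives. The transcript blot itself had 16.6, 0 and 0 normalised CPM in Shal RNAi, 0, 0.125, 23.5 and 16.3 in Notch RNAi, 0, 1.31 and 2.52 with Notch+Shal RNAi and 2.86, 0 and 3.36 in Control, far below noe in every library.

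The lncRNA mimi (FBgn0051451, chromosome arm 3R, 23983503 to 23985065, plus strand) is known in Drosophila as a scaffold of neuronal granules that contain ELAV-family RNA-binding proteins. Its normalised CPM was 1379, 323 and 1179 in Shal RNAi, 180.0, 271, 359 and 88.9 in Notch RNAi, 284, 164 and 169 with Notch+Shal RNAi and 315, 244 and 139 in Control. Shal RNAi did not overlap Control or Notch+Shal RNAi, although Shal RNAi 2 exceeded the highest Control library only narrowly. The group means were 960.4 ± 561 in Shal RNAi, 225 ± 117 in Notch RNAi, 205 ± 68 in Notch+Shal RNAi and 233 ± 88.7 in Control (SD). Fitted log2 fold changes were 2.04 (SE 0.67, unadjusted p = 0.00530, adjusted p = 0.229 by edgeR) for Shal RNAi against Control and -2.22 (SE 0.68, unadjusted p = 0.00290, adjusted p = 0.246 by edgeR) for Notch+Shal RNAi against Shal RNAi. DESeq2, run as an alternative, placed both past the threshold, with adjusted p of 0.0422 and 0.0253, the lowest over 23 alternatives, the highest being 1.

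Among the remaining lncRNAs, cherub and CR30055 are listed for an assigned role, and both were low and scattered. The lncRNA cherub (FBgn0262972, chromosome arm 3R, 11247631 to 11256123, minus strand) is known from larval type II neuroblasts, where it is inherited asymmetrically and promotes tumour growth in brat mutants. It had 112, 11.7 and 22.3 normalised CPM in Shal RNAi, 0.142, 29.6, 12.3 and 4.76 in Notch RNAi, 28.5, 7.18 and 107 with Notch+Shal RNAi and 21.5, 13 and 2.17 in Control. Its highest libraries, Shal RNAi 1 and Notch+Shal RNAi 3, belong to different groups. The 5 neuroblast markers summed to at most 6.95 CPM in any library. CR30055, listed with immune lncRNAs, ranged over 0 to 44.7 normalised CPM. Of 23 lncRNAs listed for a known role, 10 were matched in the table, 4 were among the 44 (Hsromega, noe, cherub and CR30055), and none of the 4 passed the adjusted threshold in any comparison by edgeR with all libraries. For noe, DESeq2 and the fit without Shal RNAi 2 gave other calls, as above.

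Among the 44, 5 contain microRNA genes and 1 a snoRNA gene. Hsromega holds mir-4951 and mimi holds mir-9381. CR31044 (FBgn0051044, chromosome arm 3R, 29214562 to 29219667, plus strand) holds mir-279 and mir-996, microRNAs known in the olfactory system to repress nerfin-1, a zinc-finger gene of neuronal differentiation. It had 1.22, 13.6 and 0.297 normalised CPM in Shal RNAi, 50.4, 0, 0 and 82 in Notch RNAi, 10.6, 3.06 and 178 with Notch+Shal RNAi and 0, 0.0952 and 68.4 in Control. Libraries over 50 were Notch RNAi 1 and 4, Notch+Shal RNAi 3 and Control 3. The Notch RNAi and Control groups each held both high and near-zero libraries, and the lowest Notch+Shal RNAi library was at 3.06. In the same libraries nerfin-1 had 0.406, 15.3 and 0 normalised CPM in Shal RNAi, 233, 35.4, 46.2 and 157 in Notch RNAi, 47.3, 103 and 12.9 with Notch+Shal RNAi and 12.3, 9.62 and 53.3 in Control. CR43626 (FBgn0263617, chromosome arm 3L, 3249340 to 3254504, plus strand) holds mir-282. Its level was 18.3, 0 and 0.297 in Shal RNAi, 18, 0.374, 9.93 and 183 in Notch RNAi, 0.273, 0.263 and 133 with Notch+Shal RNAi and 4.98, 0 and 28.2 in Control. Here too Notch RNAi 4 and Notch+Shal RNAi 3 were the highest. CR46006 (FBgn0267668, chromosome arm 3L, 10323501 to 10367450, plus strand) holds mir-276a, a microRNA known to act on a dopamine receptor in olfactory memory. It had 18.3, 0.133 and 0 in Shal RNAi, 0, 0.249, 8.36 and 39.7 in Notch RNAi, 0, 0 and 53.6 with Notch+Shal RNAi and 13.8, 0 and 22.6 in Control. The counts are of the long transcripts, so they say nothing of the mature microRNAs.

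CR42491 (FBgn0259993, chromosome X, 762615 to 763810, minus strand) holds snoRNA:Psi18S-531, a guide for pseudouridylation of 18S ribosomal RNA, and shares exon sequence with RpL22, a ribosomal protein gene. It had 34.1, 66 and 21.1 normalised CPM in Shal RNAi, 23.8, 95.9, 73.9 and 93.7 in Notch RNAi, 36.8, 45.4 and 109 with Notch+Shal RNAi and 69.8, 74.8 and 177 in Control. The Shal RNAi libraries were all below the Control libraries, with 66.0 the highest in Shal RNAi and 69.8 the lowest in Control. The fitted log2 fold change was -1.34 (SE 0.78, edgeR adjusted p = 0.497). RpL22 had 22.7, 7.58 and 19.9 in Shal RNAi and 49.2, 163 and 150.4 in Control.

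The lncRNA with the lowest p for a difference among the groups was CR34335 (FBgn0267910, chromosome X, 3545750 to 3546110, minus strand). Its merged exons form a single block of 361 bp inside an intron of DIP-alpha, on the same strand. DIP-alpha is a cell-surface immunoglobulin gene that takes part in synaptic partner recognition. No role is assigned to CR34335 here. Its normalised CPM was 13803, 1802 and 9266 in Shal RNAi, 1242, 795, 622 and 215 in Notch RNAi, 632, 142 and 1153 with Notch+Shal RNAi and 1144, 749.6 and 1219.7 in Control. Every Shal RNAi library was above all 10 others, and the remaining groups overlapped. Means were 8290.1 ± 6059.8 in Shal RNAi, 718 ± 425 in Notch RNAi, 642 ± 506 in Notch+Shal RNAi and 1038 ± 252 in Control (SD). A test for any difference among the 4 groups gave an edgeR adjusted p of 0.0173 over 8908 genes, past the threshold of 0.05, which 0.741% of all genes passed. By edgeR with all libraries the pairwise differences did not pass: the log2 fold change was 3.00 (SE 0.77, edgeR adjusted p = 0.168) for Shal RNAi against Control and -3.69 (SE 0.80, edgeR adjusted p = 0.208) for Notch+Shal RNAi against Shal RNAi. Both passed by DESeq2 (adjusted p = 0.00638 and 0.000280), without the filter on low counts (0.0433 and 0.0194 by edgeR) and without Shal RNAi 2 (0.0259 and 0.0474 by edgeR). The difference from Shal RNAi also passed under the replicate block (0.0342) and without Notch RNAi 4, Notch+Shal RNAi 3 and Control 3 (0.0280). Over 23 alternatives the adjusted p ranged over 0.00638 to 1 against Control and over 0.000280 to 1 against Shal RNAi. DIP-alpha had 8.93, 20.5 and 0.595 normalised CPM in Shal RNAi and 0, 4.67 and 0 in Control, so the host gene was listed at far lower levels than the lncRNA in its intron. The call for any difference was lost without Shal RNAi 1 (adjusted p = 0.109) or Shal RNAi 3 (0.0823), by limma voom (0.244) and by the older edgeR quasi-likelihood method (0.127), in a range of 2.87e-05 to 0.9997 over 22 alternatives.

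CR44948 (FBgn0266253, chromosome arm 3R, 25496078 to 25496478, minus strand) was the other lncRNA past the threshold for any difference, with an edgeR adjusted p of 0.0300. It had 149, 0.133 and 326 normalised CPM in Shal RNAi, 23.6, 0, 0.261 and 0 in Notch RNAi, 0, 9.45 and 0 with Notch+Shal RNAi and 0, 0 and 0 in Control. Of its 1737 counts, 1461 (84.1%) came from Shal RNAi 1 and 3, and Shal RNAi 2 was close to 0. With no count in any Control library, its mean in Shal RNAi was at least 482-fold higher than the mean floor of 3 counts per library in Control. For Notch+Shal RNAi against Shal RNAi the log2 fold change was -5.29 (SE 1.54, edgeR adjusted p = 0.243). For Shal RNAi against Control none of the 44 passed by edgeR with all libraries, the lowest adjusted p among them being 0.144. CR44948 passed there by DESeq2 (adjusted p = 0.0478) and, by edgeR, without Shal RNAi 2 (0.0205), in a range of 0.0205 to 1 over 22 alternatives. The call for any difference was lost without Shal RNAi 1 (adjusted p = 0.123), Shal RNAi 3 (0.522), Notch RNAi 3 (0.0591), Notch+Shal RNAi 1 (0.0738) or Control 1 (0.0523), under the replicate block (0.183), by DESeq2 (0.641), by limma voom (0.759) and by the older edgeR method (0.648), in a range of 0.00297 to 0.9997. Its neighbour CG33494, which starts or ends 917 bp away on the same strand, had 968, 38.1 and 273 normalised CPM in Shal RNAi, 74.9, 7.85, 119 and 23.9 in Notch RNAi, 214, 6.92 and 917 with Notch+Shal RNAi and 29.7, 51.5 and 43.5 in Control. That gene was also highest in Shal RNAi 1 but had 917 in Notch+Shal RNAi 3, where CR44948 was at 0.

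**Figure D3:**
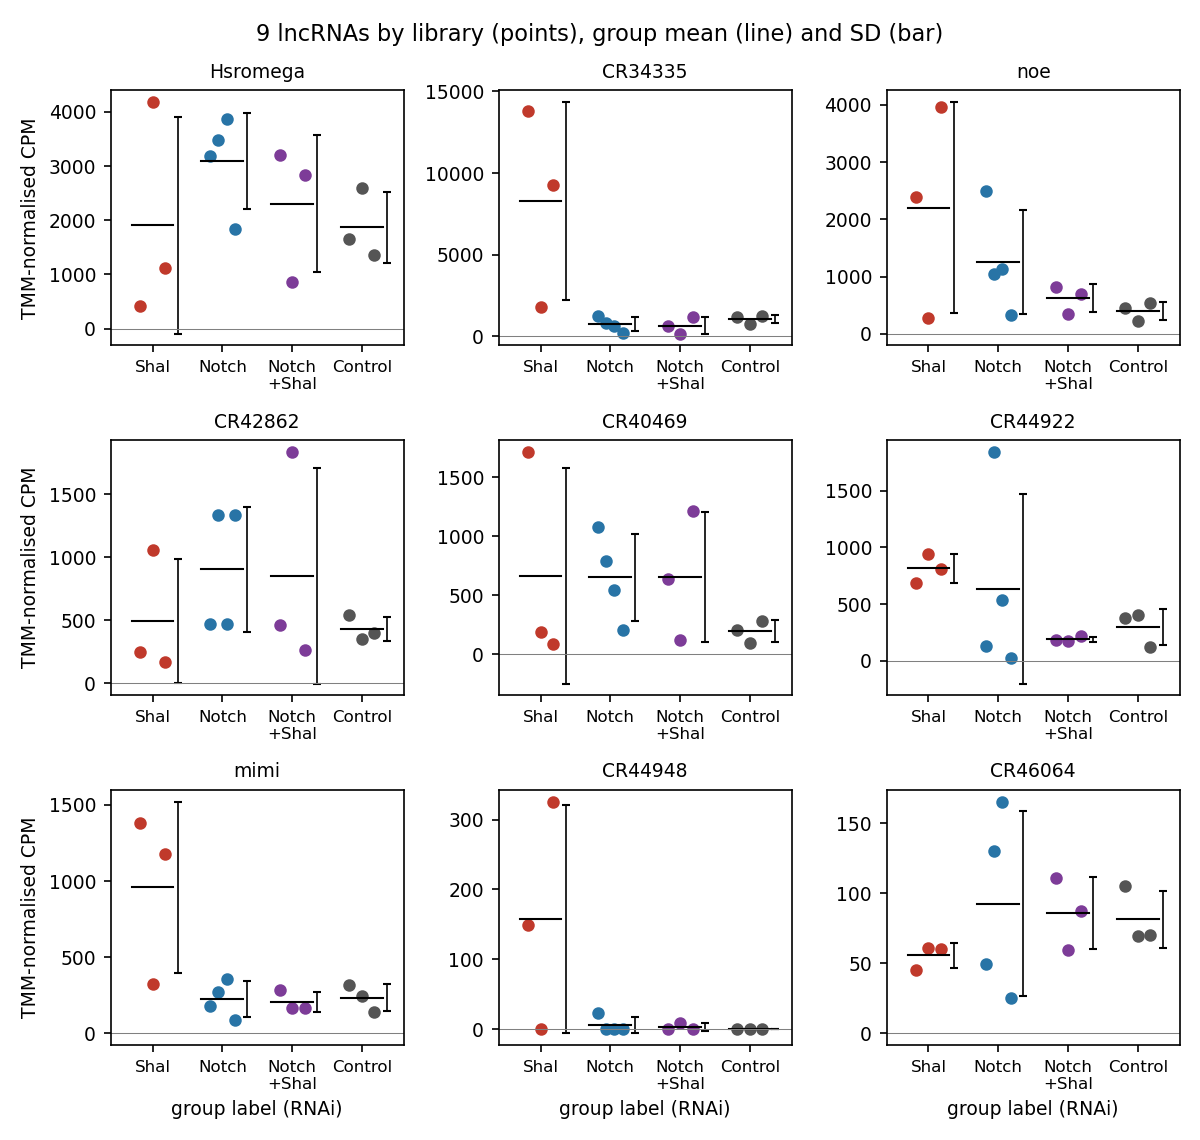
TMM-normalised CPM of 9 lncRNAs in each library (points), with the mean (line) and SD (bar) of each group label, Shal RNAi, Notch RNAi, Notch+Shal RNAi (n = 3, 4 and 3) and Control (n = 3). CR34335, mimi and CR44922 lie above all Control points in all 3 Shal RNAi libraries, CR46064 lies below them, and Hsromega and CR42862 overlap between all groups.

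The other abundant lncRNAs without an assigned role differed in how even they were. CR42862 (FBgn0262109, chromosome arm 3L, 224106 to 230964, plus strand) had 253, 1059 and 169 normalised CPM in Shal RNAi, 475, 1335, 469 and 1337 in Notch RNAi, 462, 1839 and 266 with Notch+Shal RNAi and 542, 356 and 399 in Control. All groups overlapped, and the Control libraries were the closest together. Its overlapping gene CG33229 ranged over 0 to 31.8 normalised CPM. CR40469 (FBgn0058469, chromosome X, 122493 to 122706, plus strand) is the shortest of the 44, with 214 bp. It had 1715, 189 and 87.5 in Shal RNAi, 1076, 788, 545 and 208 in Notch RNAi, 636, 118 and 1211 with Notch+Shal RNAi and 204, 99 and 286 in Control. Each RNAi group held libraries above the Control range and at least 1 library inside or below it, and the log2 fold change was 1.73 (SE 0.86, edgeR adjusted p = 1) for Notch RNAi against Control.

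CR44922 (FBgn0266227, chromosome arm 3R, 4375084 to 4377600, plus strand) had 687, 945 and 813 normalised CPM in Shal RNAi, 126, 1844, 538 and 27.5 in Notch RNAi, 180.4, 173 and 214 with Notch+Shal RNAi and 381, 403 and 117 in Control. The Shal RNAi libraries were above those of Control and of Notch+Shal RNAi without overlap, and Notch RNAi held both the highest and the lowest library of all. Its log2 fold change was 1.44 (SE 0.89, edgeR adjusted p = 0.521) for Shal RNAi against Control and -2.11 (SE 0.91, unadjusted p = 0.0293, adjusted p = 0.354 by edgeR) for Notch+Shal RNAi against Shal RNAi. Sfxn1-3, 1000 bp away on the same strand, had 32.1, 471 and 136 in Shal RNAi, 346, 184 and 201 with Notch+Shal RNAi and 301, 389.6 and 176 in Control, with no such separation.

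CR43685 (FBgn0263768, chromosome arm 3R, 7092347 to 7093707, minus strand) was the steadiest across libraries by the ratio of highest to lowest, 6.04. It had 79.5, 147 and 193 normalised CPM in Shal RNAi, 111, 105, 191 and 32 in Notch RNAi, 85.8, 50.2 and 63.3 with Notch+Shal RNAi and 103, 91.4 and 92.9 in Control. Notch+Shal RNAi lay below Control without overlap, with a log2 fold change of -0.53 (SE 0.69, edgeR adjusted p = 1). CR46064 (FBgn0267733, chromosome arm 2R, 4782892 to 4785543, plus strand), with a ratio of 6.56, had 45.5, 61.1 and 60.4 in Shal RNAi, 49.5, 130.2, 166 and 25.3 in Notch RNAi, 111, 59.7 and 87.1 with Notch+Shal RNAi and 105, 69.4 and 70.1 in Control. Shal RNAi lay below Control without overlap, and the log2 fold change was -0.53 (SE 0.75, edgeR adjusted p = 0.769).

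CR45102 (FBgn0266549, chromosome X, 3701857 to 3703285, plus strand) lies 185 bp from Mnt, which encodes a transcription factor that antagonises Myc, on the same strand. It had 474, 45 and 292 normalised CPM in Shal RNAi, 255, 43.1, 125 and 24 in Notch RNAi, 40.6, 11.3 and 108 with Notch+Shal RNAi and 57.2, 37.2 and 66.7 in Control. Shal RNAi 1 and 3 and Notch RNAi 1 were the highest, and Shal RNAi 2 lay within the Control range. The log2 fold change against Control was 2.31 (SE 0.91, unadjusted p = 0.0172, adjusted p = 0.334 by edgeR) in Shal RNAi. Mnt had 305, 51.8 and 107 in Shal RNAi and 50, 31.9 and 60.3 in Control, also highest in Shal RNAi 1 and 3, with a log2 fold change of 1.67 (SE 0.73, edgeR adjusted p = 0.382). Whether reads of Mnt were counted for the lncRNA was not tested.

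Over the whole set, the comparison of Shal RNAi with Control asks what changes with the label of a potassium-channel knockdown. By edgeR's quasi-likelihood test with Benjamini-Hochberg adjustment, 0 of the 44 passed an adjusted p of 0.05, as did 0 of 8908 genes (0%). At an unadjusted p under 0.05, 13 of 44 (29.5%) were counted, against 11.7% of all genes. Of these, 11 were higher in Shal RNAi, where 8.03% of all genes were, and 2 were lower, where 3.72% were. The 44 were admitted by level, some largely through Shal RNAi libraries, and the 8908 genes were not. CR44948, with 84.5 and 202 CPM in Shal RNAi 1 and 3, had 22.0 in its third-highest library. The shares and medians of the 44, set against all genes or all lncRNA rows here and below, are therefore not like for like. An excess, or a difference between such medians, is not a result. DESeq2 placed 7 past an adjusted p of 0.05, where 3.47% of all genes passed: CR34335, noe, mimi, CR43166, CR44948, CR44918 and CR45312. Limma voom placed 0 there. Without Shal RNAi 2 edgeR placed 4 there, CR34335, noe, CR43166 and CR44948, where 1.5% of all genes passed. The median log2 fold change was 0.49 over the 44, -0.12 over all 227 lncRNA rows tested and -0.27 over all genes. That of the 44 was unchanged with the lncRNAs without counts in a group set to their bounds. Between libraries of a group, the median log2 normalised CPM of the 44 had a pooled SD of 0.84. Leaving out Shal RNAi 1 and 3, which had the highest mitochondrial shares and the lowest TMM factors, keeps Shal RNAi 2 alone in its group. The median was then -0.35 over the 44 and -0.35 over all genes. That fit cannot tell the library from the group label, so its calls are not given, and the part of those traits was not tested. Shal RNAi and Control did not overlap in 8 of 44, where 17.9% of all genes did not overlap: CR34335, CR44922, mimi, CR44948 and CR44042 were higher and CR46064, CR42491 and CR44918 lower. CR44948 is included through 1 count in Shal RNAi 2, under the floor of 3 counts, against none in Control. The summed markers of glia, muscle, hemocytes and fat body each overlapped between Shal RNAi and Control. For hemocytes the overlap was narrow, with 60.5 CPM the lowest in Shal RNAi and 61.8 the highest in Control.

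The lncRNAs with low unadjusted p in this comparison included several that were above the Control range in only 1 or 2 of the 3 Shal RNAi libraries. CR44127 (FBgn0264958, chromosome arm 2R, 5967397 to 5967746, minus strand) had 66.1, 10.4 and 159 normalised CPM in Shal RNAi, 60.9, 14.3, 39.7 and 2.51 in Notch RNAi, 6.13, 5.78 and 8.06 with Notch+Shal RNAi and 11.1, 8.95 and 4.66 in Control. Shal RNAi 2 lay within the Control range, and the log2 fold change was 3.21 (SE 1.07, unadjusted p = 0.00583, adjusted p = 0.236 by edgeR). CR33948 (FBgn0063083, chromosome arm 3L, 7406323 to 7406617, plus strand) had 0, 1.06 and 254 in Shal RNAi, 93.6, 0.125, 0 and 26.1 in Notch RNAi, 0, 0.788 and 3.86 with Notch+Shal RNAi and 0.373, 2.67 and 15.4 in Control, so that only Shal RNAi 3 was above the Control range. CR43910 (FBgn0264511, chromosome arm 3L, 8569335 to 8569864, plus strand), in an intron of the talin gene rhea, had 8.93, 19.8 and 93.4 in Shal RNAi, 60, 40.7, 23.8 and 14.4 in Notch RNAi, 10.8, 4.46 and 36.3 with Notch+Shal RNAi and 17.3, 4.00 and 3.25 in Control. Shal RNAi 3 and Notch RNAi 1 were its highest. CR43166, CR44043 and CR45643, named after their values were seen, followed the same pattern: CR43166 had 597, 3.73 and 90.1 in Shal RNAi against 13.4, 1.71 and 8.56 in Control, CR44043 had 0, 14.2 and 212 in Shal RNAi against 20.3, 8.29 and 1.73 in Control, and CR45643 had 44.2, 1.06 and 129 in Shal RNAi against 26.8, 7.24 and 0.108 in Control. In each of the 3, Shal RNAi 1 or 3 or both were above Control and Shal RNAi 2 was at or inside the Control range.

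CR44042 (FBgn0264834, chromosome arm 2R, 1348167 to 1349167, minus strand) was low but separate from Control in both groups with Shal RNAi. It had 8.52, 31.4 and 27.1 normalised CPM in Shal RNAi, 1.14, 0, 2.61 and 18.1 in Notch RNAi, 19.2, 11.3 and 23.5 with Notch+Shal RNAi and 3.86, 1.14 and 3.68 in Control. The log2 fold change against Control was 3.08 (SE 1.23, unadjusted p = 0.0184, adjusted p = 0.334 by edgeR) in Shal RNAi and 2.64 (SE 1.22, unadjusted p = 0.0384, adjusted p = 1 by edgeR) in Notch+Shal RNAi. These comparisons share the Control libraries.

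In the opposite direction stood CR44918 and CR45312. CR44918 (FBgn0266223, chromosome arm 2L, 21864946 to 21866291, minus strand) had no count in any Shal RNAi library, 5.96, 14.3, 0.522 and 1.38 normalised CPM in Notch RNAi, 35.8, 13.3 and 7.72 with Notch+Shal RNAi and 16.3, 38.9 and 17.9 in Control. Its level was at least 29.1-fold lower in Shal RNAi, taken at the floor of 3 counts per library, than in Control, and at least 22.7-fold higher in Notch+Shal RNAi than in Shal RNAi. DESeq2 placed the difference of Shal RNAi from Control past the threshold, with an adjusted p of 0.000251 (0.000251 to 1 over 23 alternatives), against 0.232 by edgeR. CR45312 (FBgn0266851, chromosome arm 2R, 13361825 to 13362835, minus strand) had 0.406, 0 and 0.297 in Shal RNAi, which is 2 counts in all, 66.7, 17.2, 64.3 and 26.3 in Notch RNAi, 28.5, 8.14 and 8.56 with Notch+Shal RNAi and 0.373, 0.19 and 194 in Control. Since 2 of the 3 Control libraries were as low as Shal RNAi, the Control mean rested on Control 3.

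The comparison of Notch+Shal RNAi with Shal RNAi asks what the Notch RNAi label adds on the Shal RNAi background. By edgeR 0 of 44 passed the adjusted threshold, as did 0% of all genes, and 12 of 44 (27.3%) had an unadjusted p under 0.05, against 12.3% of all genes. In 11 of the 12 the level was lower in Notch+Shal RNAi, where 6.70% of all genes were, and in 1, CR44918, it was higher, where 5.59% were. DESeq2 placed 6 past an adjusted p of 0.05, CR34335, mimi, CR43264, CR45312, CR44127 and CR44918, where 3.46% of all genes passed, and limma voom 0. The median log2 fold change was -0.13 over the 44 and 0.38 over all genes, and that of the 44 was -1.84 without Notch+Shal RNAi 3. Groups did not overlap in 9 of 44 (11.7% of all genes): CR34335, CR44922, mimi, CR44417, CR43264 and CR44127 were lower and CR45312, CR44918 and CR45962 higher. CR45962 is included through 1 count in Notch+Shal RNAi 1, under the floor of 3 counts, against none in Shal RNAi. The Shal RNAi libraries enter this comparison and the one with Control, so both hold the same Shal RNAi values.

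CR43264 (FBgn0262945, chromosome X, 5831898 to 5832215, minus strand), in an intron of CG15765 on the other strand, was the lncRNA with the lowest unadjusted p for Notch+Shal RNAi against Control. It had 93.7, 43.5 and 165 normalised CPM in Shal RNAi, 0, 6.73, 89.3 and 18 in Notch RNAi, 4.22, 0.263 and 8.06 with Notch+Shal RNAi and 82.4, 16.1 and 69 in Control. All 3 Notch+Shal RNAi libraries were below all Control and all Shal RNAi libraries, and Notch RNAi ranged between 0 and 89.3. The log2 fold change was -3.94 (SE 1.25, unadjusted p = 0.00394, adjusted p = 1 by edgeR) against Control, -4.78 (SE 1.27, unadjusted p = 0.000801, adjusted p = 0.208 by edgeR) against Shal RNAi and -2.80 (SE 1.27, unadjusted p = 0.0360, adjusted p = 0.998 by edgeR) against Notch RNAi. CG15765 itself had 268, 234 and 146 with Notch+Shal RNAi, 214, 187 and 1162 in Shal RNAi and 71.7, 128 and 20 in Control. It was above every Control library in all 3 Notch+Shal RNAi libraries and overlapped Shal RNAi.

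CR45758 (FBgn0267322, chromosome arm 3L, 22960930 to 22961668, plus strand) was lower than Control in both groups with Notch RNAi, without overlap. It had 11.4, 17.6 and 44 normalised CPM in Shal RNAi, 2.7, 4.48, 1.04 and 8.48 in Notch RNAi, 0, 4.46 and 13.6 with Notch+Shal RNAi and 27.3, 31.6 and 26.3 in Control. The log2 fold change against Control was -2.55 (SE 0.97, unadjusted p = 0.0138, adjusted p = 1 by edgeR) for Notch RNAi and -2.35 (SE 1.05, unadjusted p = 0.0340, adjusted p = 1 by edgeR) for Notch+Shal RNAi, and the 2 comparisons share their Control libraries.

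For Notch RNAi against Control, 0 of 44 passed by edgeR's adjusted p (0% of all genes) and 3 of 44 (6.82%) had an unadjusted p under 0.05, noe, CR43910 and CR45758, against 4.32% of all genes. DESeq2 and limma voom each placed 0 of 44 past an adjusted p of 0.05. The median log2 fold change was 0.20 over the 44 and 0.03 over all genes. That of the 44 was 0.060 without Control 2 and 0.73 without Control 3. Groups did not overlap in 2 of 44, CR45758 and CR44918, both lower in Notch RNAi, against 3.72% of all genes.

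For Notch+Shal RNAi against Control, again 0 of 44 passed by edgeR (0% of all genes) and 3 of 44, CR43264, CR45758 and CR44042, had an unadjusted p under 0.05, against 4.32% of all genes. DESeq2 and limma voom each called 0. Medians were 0.01 over the 44 and 0.11 over all genes, and that of the 44 was -1.003 without Notch+Shal RNAi 3. Groups did not overlap in 6 of 44, where 5.92% of all genes did not: CR44042 was higher and CR43685, CR44417, CR43264, CR45758 and CR44997 were lower in Notch+Shal RNAi. Hemocyte markers were higher in Notch+Shal RNAi, as given above, and their part in these values was not tested.

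For Notch+Shal RNAi against Notch RNAi, 0 of 44 passed by edgeR, DESeq2 or limma voom (0% of all genes by edgeR), and 3 of 44 had an unadjusted p under 0.05, CR33938, CR43264 and CR33948, against 4.87% of all genes. The groups overlapped in all 44, where 1.9% of all genes did not overlap. The median log2 fold change was -0.41 over the 44 and 0.12 over all genes. That of the 44 was -0.029 without Notch+Shal RNAi 2 and -1.01 without Notch+Shal RNAi 3.

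**Figure D4:**
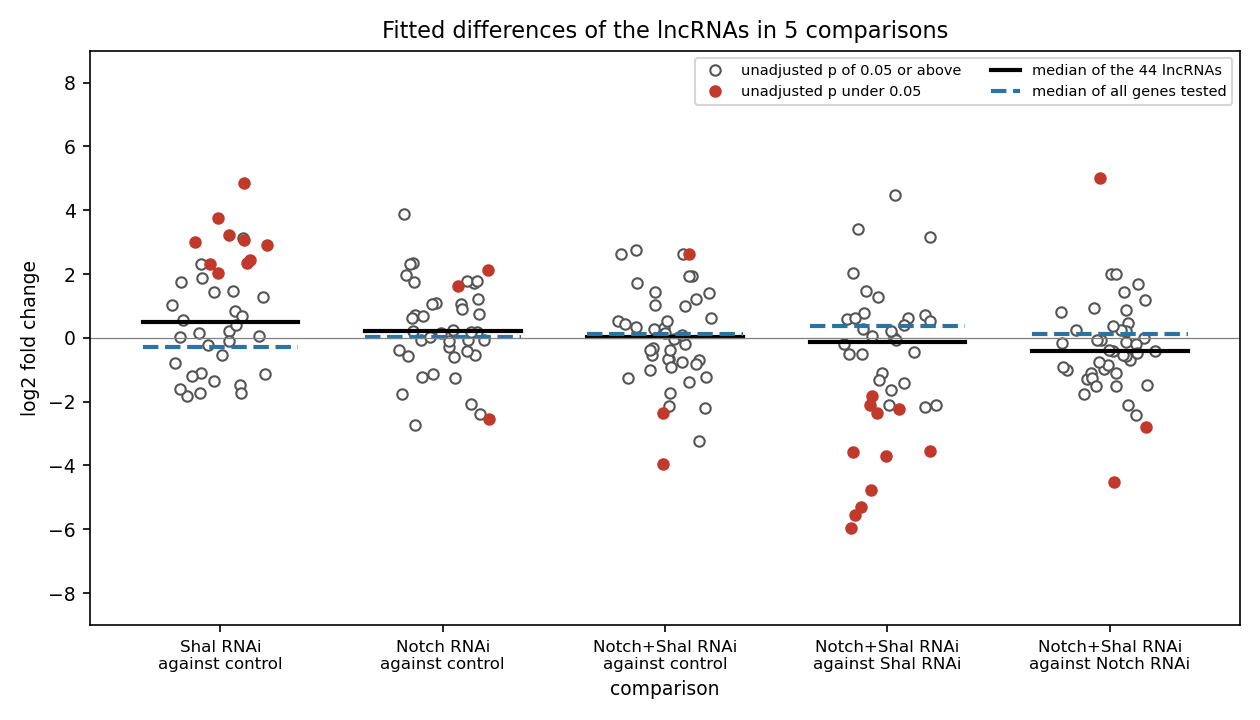
Fitted log2 fold change of the lncRNAs in 5 comparisons, the first-named group over the second, filled where the unadjusted edgeR p is under 0.05. LncRNAs with 3 or fewer counts in a group of the comparison are left out of the points. The median of the 44 (solid line) lies at 0.49 for Shal RNAi against Control and at -0.13 for Notch+Shal RNAi against Shal RNAi, and the median of all genes (dashed line) at -0.27 and 0.38. The 44 were chosen by level, so these medians are not like for like.

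The interaction, which asks whether the difference with both RNAi labels departs from the sum of the single differences, gave 0 of 44 past an adjusted p of 0.05 by edgeR (0% of all genes), 2 by DESeq2, CR44127 and CR44918 (1.32% of all genes), and 0 by limma voom. At an unadjusted p under 0.05 there were 13 of 44 (29.5%), against 9.16% of all genes. Of these, 11 were negative (4.77% of all genes) and 2 positive (4.39% of all genes). A negative value means a level with both labels below that sum. The lowest unadjusted p among those with counts in every group belonged to CR33948 and CR44127, with log2 values of -8.27 (SE 2.36, unadjusted p = 0.00161, adjusted p = 0.451 by edgeR) and -5.31 (SE 1.52, unadjusted p = 0.00167, adjusted p = 0.451 by edgeR). Without Shal RNAi 3 the value of CR33948 was -1.60. For noe the value was -3.45 (SE 1.04, unadjusted p = 0.00274, adjusted p = 0.451 by edgeR) and for CR34335 -3.16 (SE 1.02, unadjusted p = 0.00449, adjusted p = 0.451 by edgeR). The median was -0.78 over the 44 and 0.40 over all genes. Without Shal RNAi 1 and 3, which keeps Shal RNAi 2 alone in its group, it was 0.38 over the 44 and 0.72 over all genes. Leaving out 1 library put that of the 44 between -1.62, without Notch+Shal RNAi 3, and -0.24, without Shal RNAi 1.

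Tested for any difference among the 4 groups, 2 of 44 passed, CR34335 and CR44948, where 66 of 8908 genes (0.741%) did. At an unadjusted p under 0.05 there were 14 of 44 (31.8%), against 11.4% of all genes. CR45643 and mimi came next, with edgeR adjusted p of 0.0968 and 0.110. DESeq2 placed 3 past an adjusted p of 0.05, CR34335, mimi and CR44918 (2.09% of all genes). Without Shal RNAi 2, 6 of 44 passed (1.89% of all genes). Without Shal RNAi 1, 0 of 44 passed (0.0616% of all genes), as without Shal RNAi 3 (0.0513%). With both of these left out, Shal RNAi 2 is alone in its group, so no calls are given from that fit.

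Several lncRNAs were high in libraries that belong to different groups. CR33938 (FBgn0063127, chromosome arm 3R, 6699560 to 6700164, minus strand) had 0.812, 26.2 and 37.5 normalised CPM in Shal RNAi, 19.3, 0.498, 44.9 and 6.92 in Notch RNAi, 0.409, 7.35 and 1520.5 with Notch+Shal RNAi and 5.85, 0.0952 and 239.8 in Control. Most of its counts came from Notch+Shal RNAi 3 and, at a lower level, Control 3. Its log2 fold change for Notch+Shal RNAi against Notch RNAi was 5.02 (SE 2.12, unadjusted p = 0.0367, adjusted p = 0.998 by edgeR). Without Notch+Shal RNAi 3 it was -1.80. The lncRNA marge (FBgn0263380, chromosome arm 3L, 14976626 to 14977631, minus strand), named after its values were seen, had 0, 0 and 0.297 in Shal RNAi, 0.284, 0, 0.261 and 166 in Notch RNAi, 0, 9.72 and 92 with Notch+Shal RNAi and 0.498, 0 and 317 in Control. Notch RNAi 4, Notch+Shal RNAi 3 and Control 3 held nearly all of it. N itself was at 209, 344 and 182 normalised CPM in those 3 libraries and at most 29.2 in the other 10. CR43855 (FBgn0264437, chromosome arm 2L, 8590370 to 8594489, minus strand), in an intron of the axon guidance gene Sema1a on the other strand, had 28.4, 20.9 and 417 in Shal RNAi, 1039, 0, 7.84 and 1.3 in Notch RNAi, 7.63, 0.875 and 322 with Notch+Shal RNAi and 21.4, 15.7 and 15.9 in Control. It was high in 1 library of each RNAi group and even across Control.

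The 14 lncRNAs not given library by library were fitted in the same way, and none had an unadjusted p under 0.05 in any comparison. CR42861 was found in every library, at 22.9 to 222 normalised CPM, as were CR44417 at 12.5 to 118, CR42549 at 3.41 to 144 and CR43241 at 4.9 to 117. CR31781 (0.142 to 60.6) and CR43242 (0.125 to 52.6) had a count in every library but only single counts in some. The other 8 had at least 1 library without a count: CR32218 reached 77.4, CR32368 70.2, CR45333 61.9, CR44218 53.2, CR30055 44.7, CR45054 41.6, CR44997 34.2 and CR45962 26.9 normalised CPM in their highest library. CR45962 had no count in any Shal RNAi library.

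In which group a lncRNA peaked depended on the scaling. By TMM-normalised CPM the highest library of 22 of the 44 was a Shal RNAi library, of 11 a Notch RNAi, of 6 a Notch+Shal RNAi and of 5 a Control library. By CPM of the library total the numbers were 15, 14, 8 and 7. The order of the groups was the same by both, and Shal RNAi held fewer by CPM. Notch RNAi has 4 libraries and each other group 3. The TMM factors of 0.569 and 0.621 raise every gene in Shal RNAi 1 and 3. The same count over all genes was not made, so these numbers are not a result about the 44.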

How the data were processed

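The authors deposited 1 table of raw counts per gene for 13 Patch-seq libraries. PolyA RNA was reverse transcribed with template switching and PCR-amplified, per the labels' protocols. Per the submitters' processing notes, the build was BDGP6 and the tools STAR 2.7.0e, edgeR 3.26.7, limma 3.40.6 and R 3.6.1. Annotation, strand and duplicate settings were not given in the sources used here. Library totals were 3783100 to 9319116 counts, and intervals or floors cover counting error only.

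Identifiers were matched to symbols and to the BDGP6.54 annotation, and 17625 of 17753 matched. Groups follow the genotype labels. Counts were tested with edgeR 4.0.16 in R 4.3.3 (TMM, filterByExpr with a minimum count of 10, robust quasi-likelihood fit over all 13 libraries, 2-sided, Benjamini-Hochberg over 8908 genes, threshold 0.05). DESeq2 1.42.0 and limma voom (3.58.1) were alternatives, with other scalings, filters, thresholds and left-out libraries. The scripts were tested on simulated data. A floor of 3 counts per library served where a group had none. No 2 libraries of the same group agreed within sampling noise.

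The lncRNAs and lists were chosen with earlier results of these data known. Given by library were the 12 with the highest mean CPM, those past the threshold, the 2 per direction with the lowest unadjusted p in each comparison and those with listed roles (CR30055 by its range). A further 8 (CR43626, CR31044, CR46006, CR42491, marge, CR43166, CR45643, CR44043) were added after their values were seen. No sequence is printed.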

Additional observations from a re-analysis of the deposited data

Results flagged for a closer look

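Among the 4 Notch RNAi libraries, 1 library lay far from the other 3 in 8 of the 44 lncRNAs, by Dixon's ratio of the gap to its nearest neighbour over the whole range at the 95% critical value. That critical value flags 1 in 20 groups by chance where values are normally distributed. These normalised CPM are skewed and hold zeros, so that rate does not apply, and the lncRNAs share their libraries. The 8 are therefore a description and not an excess over chance. Notch RNAi 1 was high for CR43855, with 1039 normalised CPM, for CR44417, with 118, and for CR44948, with 23.6. Notch RNAi 4 was high for CR43626 with 183, marge with 166 and CR44042 with 18.1 normalised CPM. Notch RNAi 3 was high for CR44997, with 34.2, and for CR45643, with 10.4 normalised CPM.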

How the results depend on the processing

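In the comparisons of Notch RNAi with Control and of Notch+Shal RNAi with Control and with Notch RNAi, 0 of the 44 were called under every alternative run. Called among the 44 for any difference among the groups were 2. With the lncRNA threshold at 10 CPM there were 4 and at 50 CPM 1. Limma voom and the older edgeR method (added after seeing the data) each gave 0. Over all genes these gave 2 and 1, against 66. The fit without Shal RNAi 1 and 3 keeps Shal RNAi 2 alone in its group, so its calls are not given. It is among the alternatives whose ranges are given above. Leaving out 1 library gave 0 to 6, the most without Shal RNAi 2. For Shal RNAi against Control, DESeq2 gave 7 and no filter on low counts 1, and leaving out 1 library 0 to 4. For Notch+Shal RNAi against Shal RNAi, DESeq2 gave 6, and no filter, the replicate block and the fit without Notch RNAi 4, Notch+Shal RNAi 3 and Control 3 (added after seeing the data) 1 each, and leaving out 1 library 0 to 1. DESeq2 gave 2 for the interaction. It left 3 lncRNAs without an adjusted p. The labels do not say that replicate numbers pair libraries, and not every same-number pair correlated over 0.1: the 18 ran between -0.18 and 0.24, with 5 over 0.1. Of the 12 libraries with a same-number partner, 7 correlated best with their own number, a hint from the data and not from the design. With the number as a block, 1 lncRNA was called for any difference. Medians moved too. Leaving out 1 library put that of Notch+Shal RNAi at -1.003 to 0.26 against Control and at -1.84 to -0.029 against Shal RNAi, the lowest without Notch+Shal RNAi 3. Without the 3 libraries named above, the median against Shal RNAi was -1.94 and that of the interaction -2.10. The interaction median was 0.38 without Shal RNAi 1 and 3. The causes were not tested. TMMwsp scaling put the median of all genes at -0.02 (TMM: -0.27) and that of the 44 at 0.77 for Shal RNAi against Control. At the lowest depth, a count of 0 allows up to 0.793 CPM.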

Other observations

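Listed lncRNAs with a known role that did not reach the threshold were mostly near 0. The lncRNA let7C, the host of the let-7 microRNA cluster, had 0, 0 and 0 normalised CPM in Shal RNAi, 0, 0, 0 and 4.33 in Notch RNAi, 0, 0.525 and 1.68 with Notch+Shal RNAi and 0, 0.286 and 3.47 in Control. It was found in 5 of 13 libraries. The lncRNA iab8, a bithorax complex transcript that holds a microRNA, had 19.9, 0 and 0 in Shal RNAi, 9.93, 62.2, 15.9 and 0.173 in Notch RNAi, 0, 0.875 and 4.36 with Notch+Shal RNAi and 12.9, 1.05 and 0.758 in Control. CR33942, known to act in innate immune signalling and the lncRNA just outside the threshold, had 273, 39.3 and 6.84 in Shal RNAi, 0, 3.74, 5.22 and 0 in Notch RNAi, 10.5, 0.700 and 20.6 with Notch+Shal RNAi and 11.4, 3.24 and 1.52 in Control. Shal RNAi 1 held most of it. The lncRNA sphinx reached 4.03 in 1 library, and yar and acal had no count in any.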
